A study of Homo sapiens with 6 samples.

Results

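The genes described here were 53 human genes of DNA replication and of the G1/S transition, chosen by their symbols and known roles: the origin recognition complex, the licensing factors, the MCM helicase, the helicase activators, the replicative polymerases, the sliding clamp and its loader, the single-strand binding protein RPA, the E2F transcription factors, cyclin E with CDK2 and CDC25A, and UHRF1. The choice was made with earlier results of these data known. All 53 genes were found among the 57819 genes of the deposited RNA-seq table, and 52 had enough reads to be tested. E2F2 did not. The cells were IMR90, a human fetal lung fibroblast line, carrying ER:Ras, a RAS oncogene fused to a hormone-binding domain that 4-hydroxytamoxifen (4OHT) switches on. All 6 libraries came from cells given 200 nM 4OHT for 3 days, so RAS was switched on in both groups; 3 received a control siRNA (siSCR) and 3 an siRNA against sin-lncRNA, a long non-coding RNA studied in senescence. Libraries of cells without 4OHT were not analysed here, so no value below is set against proliferating cells. The labels call the knockdown siRNA si1, while the tested columns of the deposited table are named si1.3, so whether 1 siRNA or several were used is not settled here. The labels name 1 cell line, and they do not say whether the replicates were separate cultures; p-values therefore measure only the spread between these samples, which may be technical.

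Replication starts in 2 steps that are kept apart in the cell cycle. In G1, the origin recognition complex, CDC6 and CDT1 load the MCM2-7 ring onto DNA, which is called licensing; at the start of S phase, CDK2 with cyclin E and the CDC7-DBF4 kinase bring CDC45 and the GINS complex to the ring and turn it into a moving helicase, behind which the polymerases, the PCNA clamp and RPA work. Most of these genes are transcribed late in G1 by E2F factors, which the RB protein holds back. Oncogenic RAS in fibroblasts is known to lead to senescence, a lasting arrest in which RB-bound E2F targets are silenced.

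To show what the promoters of these genes hold, RefSeq promoter windows (GRCh38.p14, 250 bases before to 50 after a gene start) were searched for the E2F-like words TTTGGCGC, TTTCGCGC, TTTCCCGC and TTTGCCGC on both strands, counting overlapping matches. The promoter table matched 44 of the 53 genes, with 57 windows, and left POLD3, RPA2, RPA3, CDK2, MCM4, MCM5, CCNE2, GINS4 and E2F8 without one. A word was present in 25 of the 57 windows (43.9%), against 1164 of all 35116 windows (3.31%). All windows together cover 27305 genes, whether or not they were tested here, so they are not a matched background. The 160 bases before the start are shown for the 4 genes with a word and the largest called decrease and for the 2 genes without a word and the largest called decrease; capitals mark the E2F-like words, and each sequence reads 5′ to 3′ on the gene's strand. E2F1, the activator that itself drives entry into S phase (chr20:33686386-33686545, minus strand), held 2 words, starting 33 and 20 bases before the start. MCM6, a helicase subunit (chr2:135876444-135876603, minus strand), held 4 words in 2 stretches, each stretch a pair of words on opposite strands that overlap. RFC3, a clamp loader subunit (chr13:33817989-33818148, plus strand), and CDT1, a licensing factor (chr16:88803629-88803788, plus strand), held 1 word each, 55 and 35 bases before the start. MCM10 (chr10:13161398-13161557, plus strand), which helps to fire licensed origins, and ORC6 (chr16:46689499-46689658, plus strand), the smallest origin recognition subunit, held none of the 4 words in their windows.
E2F1: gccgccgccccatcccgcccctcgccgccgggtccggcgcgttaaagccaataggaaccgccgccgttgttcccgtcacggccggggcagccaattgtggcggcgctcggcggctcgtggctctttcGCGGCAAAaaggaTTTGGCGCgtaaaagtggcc
MCM6: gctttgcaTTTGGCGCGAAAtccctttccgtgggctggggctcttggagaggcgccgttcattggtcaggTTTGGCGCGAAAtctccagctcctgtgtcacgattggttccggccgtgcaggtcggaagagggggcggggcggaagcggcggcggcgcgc
RFC3: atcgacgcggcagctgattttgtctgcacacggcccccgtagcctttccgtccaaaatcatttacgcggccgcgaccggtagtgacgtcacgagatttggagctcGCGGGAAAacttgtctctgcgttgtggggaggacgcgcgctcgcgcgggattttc
CDT1: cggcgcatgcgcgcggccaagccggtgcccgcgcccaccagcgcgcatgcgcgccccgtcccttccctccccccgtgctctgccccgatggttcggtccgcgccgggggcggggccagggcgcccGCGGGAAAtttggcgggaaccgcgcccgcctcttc
MCM10: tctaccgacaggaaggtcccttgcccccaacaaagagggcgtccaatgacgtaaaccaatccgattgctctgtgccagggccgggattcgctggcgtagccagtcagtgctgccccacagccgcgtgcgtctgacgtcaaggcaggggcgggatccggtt
ORC6: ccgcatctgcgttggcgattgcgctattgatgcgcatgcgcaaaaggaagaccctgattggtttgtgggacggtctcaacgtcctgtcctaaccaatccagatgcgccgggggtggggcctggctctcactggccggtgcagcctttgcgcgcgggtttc

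Replication and G1/S genes were lower on sin-lncRNA knockdown. Of the 52 tested, 33 fell and 1 rose, E2F3, at an adjusted p under 0.05 in limma with Benjamini-Hochberg adjustment over all 19048 genes tested; that is 63.5% called lower, where 23.5% of all genes tested were called lower, 17.5% were called higher, and 26.4% of the protein-coding genes were called lower. The median log2 fold change, knockdown minus control, was -0.37 over the 52 genes (quartiles -0.57 and -0.13), against -0.04 over all genes tested, and 47 of the 52 had a negative value. The 2 groups of libraries did not overlap for 35 genes, 32 of them with every knockdown library below every control, which 28.5% of all genes tested also showed. Because the genes were chosen with earlier results of these data known, these shares are a description. The range ran from -1.19 for GINS4, a subunit of the helicase activator GINS, to 0.65 for E2F3. Counts by role below rest on few genes each and are to be read beside the shares of all genes tested. In bulk RNA, fewer cells on their way into S phase and less RNA of these genes per cell cannot be told apart. Without control library 3, the deepest, 22 members passed the test, 21 lower and 1 higher, and the median was -0.33. Over all genes tested, the count of calls also fell when any 1 library was left out, from 7805 to between 5803 and 7330.

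**Figure D1:**
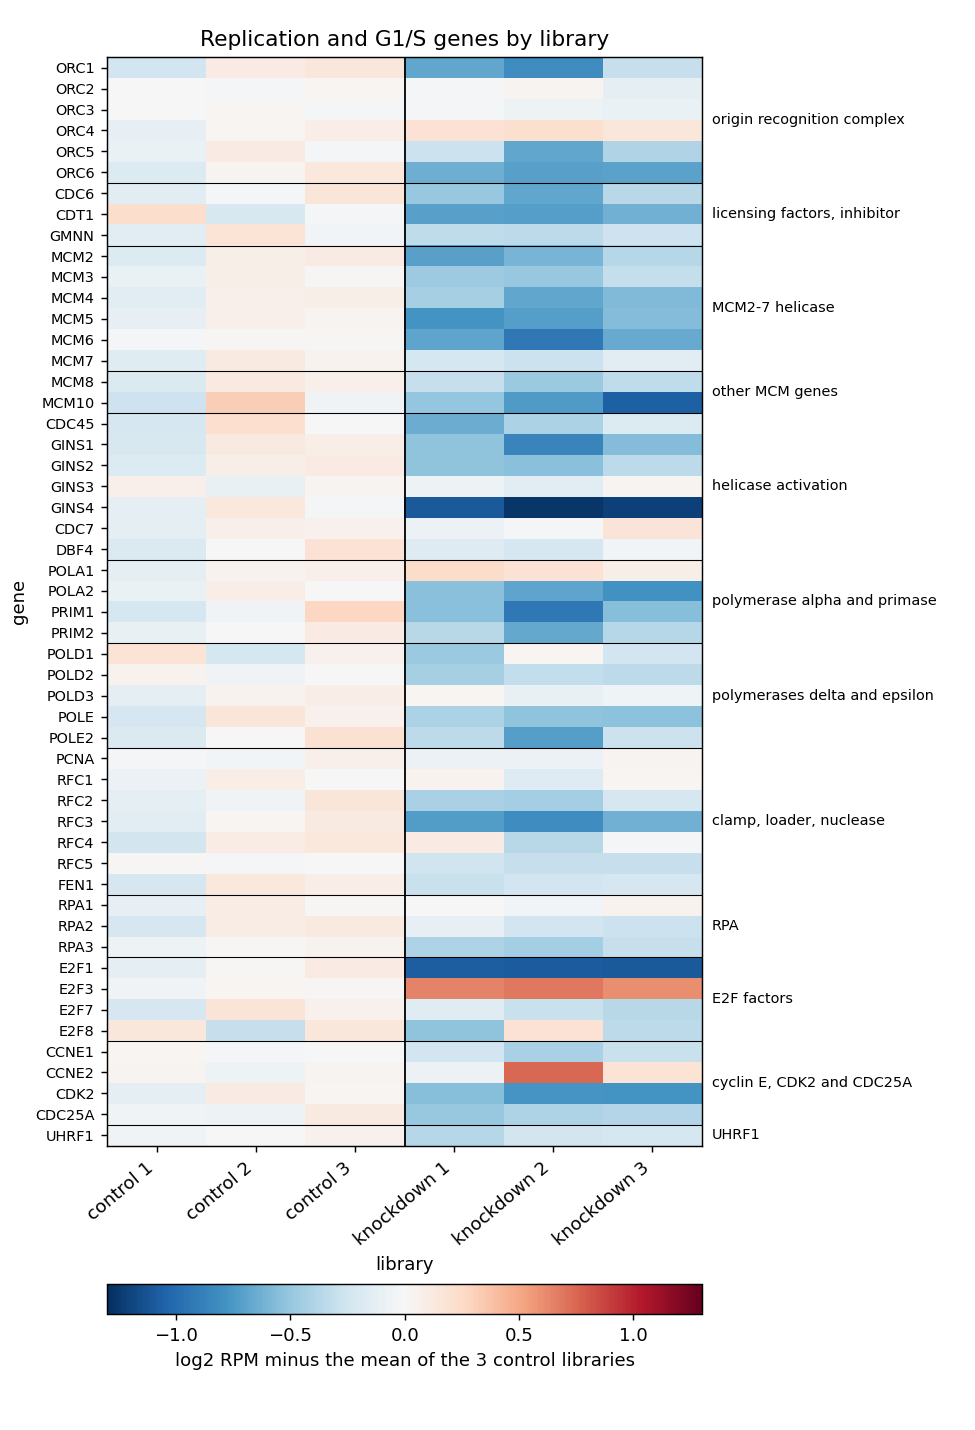
Each tile is the level of 1 tested gene (vertical axis, ordered by role) in 1 library (horizontal axis), as log2 RPM minus the mean of the 3 control libraries; blue is lower and red is higher. The knockdown columns are blue for most genes, deepest for GINS4 and E2F1, while E2F3 is red in all 3, and control 1 is the lowest control for 40 of the 52.

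The libraries held 22117324 to 50913672 reads in genes, and the 3 knockdown libraries were all shallower than the 3 controls. Levels are given as RPM, the reads of a gene per 1000000 reads of the library's effective size. The targeted sin-lncRNA fell from 4.17 ± 0.519 to 0.556 ± 0.076 RPM (mean ± SD, n = 3), with all knockdown libraries below all controls. The 8 fibroblast markers, collagens and vimentin among them, summed to 15189 to 16371 RPM in the controls and 10692 to 11119 RPM in the knockdown libraries, with 5 called lower and 3 called higher; the part of this shift, or of depth, in the results below was not tested, beyond thinning all libraries to the smallest total, after which 32 members passed. Markers of other cell types were near zero. Over the 6 libraries, 5 epithelial markers summed to 0.314 to 0.533 RPM and 4 leukocyte markers to 0.0896 to 0.356 RPM. The endothelial markers CDH5 and VWF summed to 1.67 to 1.83 RPM in controls and 2.20 to 2.60 RPM in knockdown libraries. Of these 2, 1 was tested and called higher (log2 fold change 0.42), while the 1 epithelial marker tested was not called. PECAM1, also a planned endothelial marker, was not matched by name.

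The origin recognition complex, the 6 subunits that mark origins, split by subunit. ORC1, ORC5 and ORC6 fell (50% of the 6, against 23.5% of all genes tested), and ORC2, ORC3 and ORC4 did not pass the test. ORC1, the subunit that is rebuilt in each G1, was at 2.76, 3.53 and 3.64 RPM in control libraries 1 to 3 and at 2.06, 1.88 and 2.67 RPM in knockdown libraries 1 to 3. The groups did not overlap, although knockdown 3 came close to control 1. The log2 fold change was -0.58 (SE 0.17, limma adjusted p = 0.017), and the call was lost without control 3 (adjusted p = 0.0797) or knockdown 2 (0.0601). ORC6 was at 6.73, 7.79 and 8.33 RPM in the controls and at 4.89, 4.65 and 4.67 RPM in the knockdown libraries. Those knockdown values were closely spaced and all lay below the lowest control, at a log2 fold change of -0.68 (SE 0.10, limma adjusted p = 0.00042). ORC5, part of the core ATPase ring, fell from 20.3 ± 1.44 to 14.9 ± 2.05 RPM (log2 fold change -0.45, limma adjusted p = 0.0041). ORC2 and ORC3 had log2 fold changes of -0.03 and -0.06 with SEs of 0.06 each. ORC4 had a log2 fold change of 0.18 (limma adjusted p = 0.066) with all knockdown libraries above all controls; it passed as higher when library totals, quantile normalization or thinned libraries were used, with adjusted p from 0.034 to 0.0414. Reads of ORC4 cannot be separated from those of ACVR2A and MBD5, which overlap it on the opposite strand, because the strand setting of the counting is not given.

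Per length, as RPM divided by the length in kb of the longest GENCODE transcript (RPKM), the control levels of the complex ran from ORC5 at 9.95 and ORC3 at 8.79 RPKM through ORC2 at 5.18, ORC6 at 4.15 and ORC4 at 2.30 to ORC1 at 1.05 RPKM. ORC5 stood above ORC3 in all 3 control libraries and below it in all 3 knockdown libraries, where the means were 7.31 and 8.43 RPKM. ORC6 and ORC4, well apart in the controls, had mean levels of 2.58 and 2.59 RPKM in the knockdown libraries and overlapped there. ORC6 was divided by 1833 bases and ORC4 by 6710, so such orders between genes depend on the transcript taken for each. ORC1 had the lowest level of the 6 in every library.

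The licensing factors CDC6 and CDT1 bring the helicase to the origin, and geminin (GMNN) is the protein that blocks CDT1. All 3 fell (100%, against 23.5% of all genes tested). CDC6 was at 6.55, 7.16 and 8.11 RPM in the controls and at 5.15, 4.53 and 5.63 RPM in the knockdown libraries. CDT1 was at 6.08, 4.50 and 5.17 RPM in the controls and at 3.18, 3.16 and 3.38 RPM in the knockdown libraries. Neither gene's groups overlapped; control 1 was the lowest control for CDC6 and the highest for CDT1. The log2 fold changes were -0.51 for CDC6 (SE 0.12, limma adjusted p = 0.0049) and -0.68 for CDT1 (SE 0.13, limma adjusted p = 0.0015). Geminin moved less, from 8.04 ± 0.924 to 6.44 ± 0.166 RPM (log2 fold change -0.31, limma adjusted p = 0.027). It was called in 11 of 19 other fits. The call was lost without control 2 (limma adjusted p = 0.114), control 3 (0.0658) or any 1 of the knockdown libraries (0.0527 to 0.0673). With a replicate block it was also lost (0.0529). The log2 fold change was -0.224 without control 2, -0.331 without control 3 and -0.3 to -0.334 without 1 knockdown library.

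The MCM2-7 ring, the replicative helicase, fell in all 6 subunits (100%, against 23.5% of all genes tested). MCM2, which carries a histone-binding tail, was at 12.5, 15 and 15.2 RPM in the controls and at 8.70, 9.35 and 10.9 RPM in the knockdown libraries. MCM4, a target of the CDC7 kinase, was at 33.0, 38.2 and 38.5 RPM in the controls and at 27.1, 22.8 and 24.5 RPM in the knockdown libraries. In both genes every knockdown library was below every control, and control 1 was the lowest control. The log2 fold changes were -0.56 for MCM2 (SE 0.11, limma adjusted p = 0.0016) and -0.56 for MCM4 (SE 0.08, limma adjusted p = 0.00028). MCM5, which with MCM2 forms the gate of the ring, was at 17.9, 20.2 and 19.7 RPM in the controls and at 11.3, 11.7 and 13.0 RPM in the knockdown libraries. MCM6 was at 26.2, 27.0 and 27.0 RPM in the controls and at 16.6, 14.0 and 17.0 RPM in the knockdown libraries. The control values of MCM6 were nearly the same, and in both genes every knockdown library was far below them. MCM6 had the largest decrease of the ring, a log2 fold change of -0.75 (SE 0.08, limma adjusted p = 2.7e-05), and MCM5 had -0.68 (SE 0.08, limma adjusted p = 6.3e-05).

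MCM3 fell from 28.8 ± 1.68 to 21.5 ± 1.48 RPM (log2 fold change -0.43, limma adjusted p = 0.00067). MCM7 had the smallest change of the ring, from 54.1 ± 5.14 to 46.4 ± 2.10 RPM (log2 fold change -0.22, limma adjusted p = 0.03), with knockdown 3 above control 1. It was called in 11 of 19 other fits, and not without control 2 (adjusted p = 0.0929), control 3 (0.11), knockdown 1 (0.067) or knockdown 2 (0.0968), with a replicate block (0.0548), or after removing a GC and length trend (0.245). The genes MIR25, MIR93 and MIR106B lie within MCM7 on the same strand, AP4M1 overlaps it on the other strand, and TPRA1 overlaps MCM2 on the other strand. Per length, the order of mean control levels was MCM7 at 17.5, MCM3 at 8.98, MCM4 at 8.74, MCM6 at 7.16, MCM5 at 4.19 and MCM2 at 3.93 RPKM, with MCM3 and MCM4 overlapping and MCM5 and MCM2 overlapping. In the knockdown libraries the order was MCM7 at 15, MCM3 at 6.69, MCM4 at 5.94, MCM6 at 4.25, MCM2 at 2.67 and MCM5 at 2.60 RPKM, and the same pairs overlapped.

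**Figure D2:**
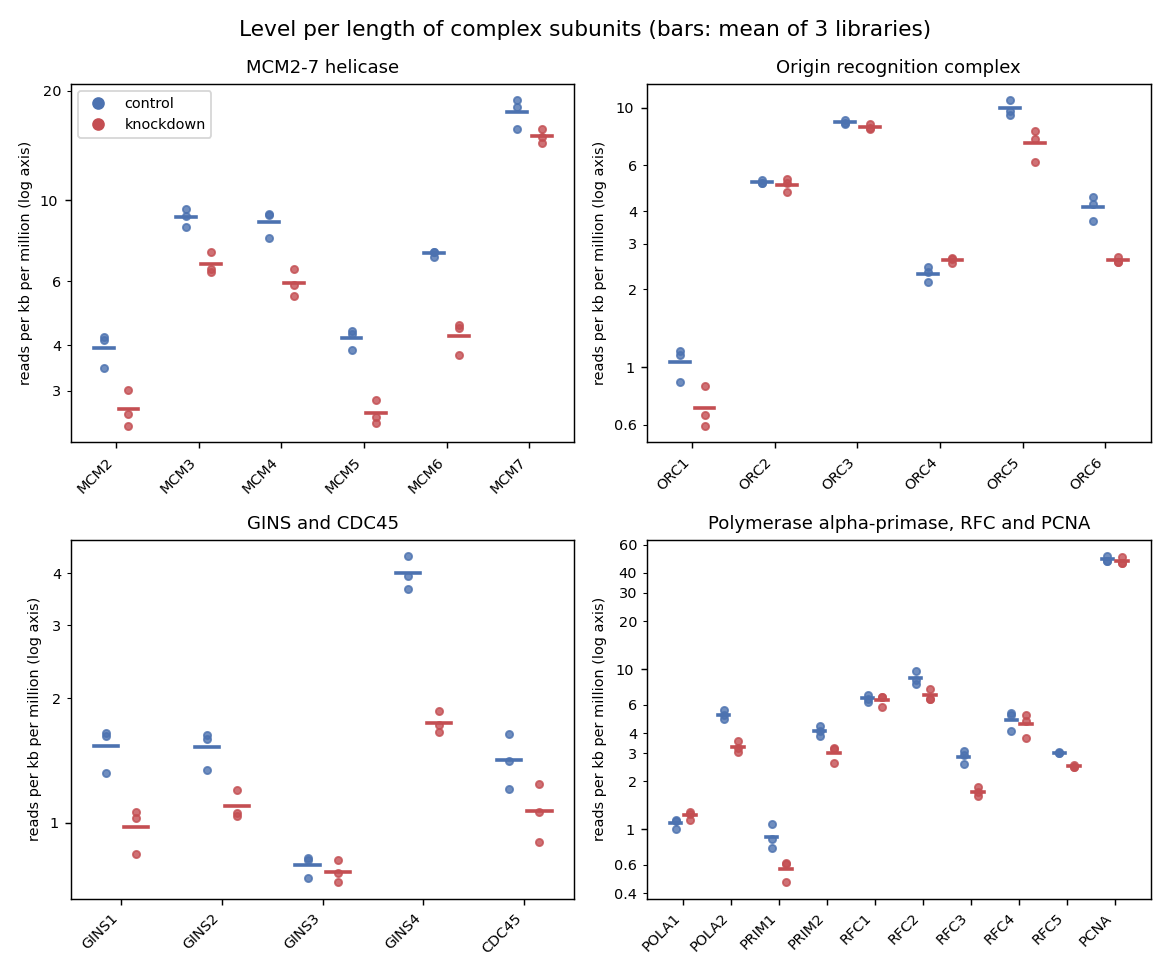
Points are single libraries (blue control, red knockdown) and bars are means of 3, as RPKM on logarithmic axes that differ between panels. The knockdown mean is below the control mean for all 6 MCM subunits, with overlapping groups for MCM7, GINS4 falls from 4.00 to 1.75 while GINS3 stays at 0.792 and 0.763, and PCNA has the highest level in its panel with overlapping groups.

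The other 2 MCM genes also fell (100%, against 23.5% of all genes tested). MCM10, which joins the helicase when origins fire, was at 2.58, 3.90 and 3.02 RPM in the controls and at 2.20, 1.88 and 1.5 RPM in the knockdown libraries. The groups did not overlap, but these are small numbers of reads, 42 to 152 a library, and the controls were spread. The log2 fold change was -0.76 (SE 0.19, limma adjusted p = 0.0083). MCM8, which works in recombination with MCM9, fell from 10.9 ± 1.2 to 8.41 ± 0.562 RPM (log2 fold change -0.37, limma adjusted p = 0.012), a call lost without control 3 (adjusted p = 0.0589).

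Among the 7 helicase activation genes 3 fell (42.9%, against 23.5% of all genes tested). All 3 were subunits of GINS, the 4-part complex that clamps CDC45 to the MCM ring. GINS4 had the largest decrease of all members. It was at 14.2, 17.0 and 15.2 RPM in the controls and at 7.22, 6.40 and 6.66 RPM in the knockdown libraries. No knockdown library came near a control: the knockdown level was 43.7% ± 2.68 of the control mean, at a log2 fold change of -1.19 (SE 0.09, limma adjusted p = 3.2e-06). GINS1 was at 4.29, 5.36 and 5.27 RPM in the controls and at 3.45, 2.73 and 3.35 RPM in the knockdown libraries. Its groups did not overlap, and the log2 fold change was -0.64 (SE 0.14, limma adjusted p = 0.0032). GINS2 fell from 4.07 ± 0.420 to 2.93 ± 0.236 RPM (log2 fold change -0.46, limma adjusted p = 0.013), a call lost without control 3 (adjusted p = 0.0684), and GSE1 overlaps it on the other strand. GINS3 was at 2.54 ± 0.151 and 2.44 ± 0.149 RPM (log2 fold change -0.05, SE 0.13) and was not called. Per length, GINS4 had the highest control level of the 4 subunits at 4.00 RPKM, with GINS1 at 1.53, GINS2 at 1.52 and GINS3 at 0.792 RPKM; in the knockdown libraries GINS4 was at 1.75 RPKM and still above the others.

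CDC45, the third part of the active helicase, was at 2.97 ± 0.453 RPM in the controls and 2.23 ± 0.359 RPM in the knockdown libraries, and its groups overlapped. Its log2 fold change of -0.40 did not pass (limma adjusted p = 0.073), but passed without control 1 (adjusted p = 0.0406) or knockdown 3 (0.048). The kinase CDC7 and its activating subunit DBF4 had log2 fold changes of 0.02 (SE 0.11) and -0.14 (SE 0.10), with overlapping groups, and were not called; SLC25A40 overlaps DBF4 on the other strand.

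Of the polymerase alpha and primase genes, which make the RNA-DNA primers, 3 of 4 fell (75%, against 23.5% of all genes tested). POLA2, the accessory subunit, was at 18.4, 20.7 and 19.5 RPM in the controls and at 13.4, 12.1 and 11.3 RPM in the knockdown libraries. Its groups were far apart, at a log2 fold change of -0.67 (SE 0.08, limma adjusted p = 8.4e-05). PRIM1, the catalytic primase, was at 1.12, 1.27 and 1.57 RPM in the controls and at 0.896, 0.683 and 0.891 RPM in the knockdown libraries. Those values rest on 16 to 79 reads a library, and although the groups did not overlap the log2 fold change of -0.65 had an SE of 0.21 (limma adjusted p = 0.029). The PRIM1 call was lost without control 2 (adjusted p = 0.0535), control 3 (0.142) or knockdown 2 (0.0878), with thinned libraries (0.0924) and with no filter on low values (0.0588); the abundant NACA overlaps it on the same strand. PRIM2, the primase's regulatory subunit, fell from 9.53 ± 0.705 to 6.93 ± 0.788 RPM (log2 fold change -0.46, limma adjusted p = 0.0046). POLA1, the catalytic polymerase subunit, was not called: it was at 5.99 ± 0.408 and 6.72 ± 0.377 RPM, with every knockdown library above every control (log2 fold change 0.17, limma adjusted p = 0.19). The catalytic and accessory subunits of polymerase alpha therefore had fold changes of opposite sign, and the pseudogene EEF1B2P3 overlaps POLA1 on the other strand.

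Polymerases delta and epsilon copy the lagging and the leading strand. POLE, the catalytic subunit of epsilon, fell from 19.9 ± 2.61 to 14.1 ± 0.661 RPM (log2 fold change -0.49, limma adjusted p = 0.0018), and POLD2, an accessory subunit of delta, fell from 68.9 ± 2.05 to 53.5 ± 2.20 RPM (log2 fold change -0.37, limma adjusted p = 0.00021). The catalytic subunit POLD1 had a log2 fold change of -0.23 (limma adjusted p = 0.2) with overlapping groups, and passed without control 2 (log2 fold change -0.35, adjusted p = 0.0461). POLE2 had a log2 fold change of -0.43, but only 21 to 85 reads a library and an SE of 0.19, and did not pass (limma adjusted p = 0.098). POLD3 had a log2 fold change of -0.04 (SE 0.09). Per length POLD2 had the second highest control level of the members with a length, 31.9 RPKM, against 3.27 RPKM for POLD1 and 2.53 RPKM for POLD3.

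PCNA, the sliding clamp and a common marker of S-phase cells, was not called. It was at 64.9, 64.6 and 69.1 RPM in the controls and at 62.8, 62.7 and 68.0 RPM in the knockdown libraries. Those groups overlapped, and the log2 fold change was -0.04 (SE 0.05, limma adjusted p = 0.6). It had the highest level per length of the 52 members with a transcript length (all but UHRF1), 48.7 RPKM in the controls and 47.5 RPKM in the knockdown libraries. Of the 5 subunits of RFC, which loads the clamp, RFC2, RFC3 and RFC5 fell, where 23.5% of all genes tested were called lower. RFC1 and RFC4 did not pass. RFC3 was at 6.14, 6.96 and 7.41 RPM in the controls and at 4.12, 3.88 and 4.42 RPM in the knockdown libraries. No knockdown library reached a control, and the log2 fold change was -0.72 (SE 0.11, limma adjusted p = 0.00037). RFC2 had a log2 fold change of -0.36 (limma adjusted p = 0.0098) and RFC5 one of -0.28 (limma adjusted p = 0.019). Both calls were lost without control 3, with adjusted p of 0.0568 for RFC2 and 0.0673 for RFC5, and that of RFC5 also with thinned libraries (0.0637). RFC1, the large subunit, and RFC4 had log2 fold changes of -0.03 (SE 0.07) and -0.09 (SE 0.14).

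FEN1, the nuclease that trims Okazaki fragments, fell from 26.8 ± 3.47 to 22.4 ± 0.620 RPM (log2 fold change -0.25, limma adjusted p = 0.04), with knockdown 3 above control 1. It was called in 10 of 19 other fits and not without control 2 (adjusted p = 0.121), control 3 (0.149) or any 1 of the knockdown libraries (0.0771 to 0.102); FADS2 overlaps it on the same strand and TMEM258 on the other. Of RPA, the trimer that coats single-stranded DNA, RPA3 fell from 5.52 ± 0.208 to 4.24 ± 0.225 RPM (log2 fold change -0.38, limma adjusted p = 0.011), a call lost without control 3 (adjusted p = 0.0531). RPA2 had a log2 fold change of -0.21 (limma adjusted p = 0.082) and passed without control 1 (log2 fold change -0.32, adjusted p = 0.0048). The large subunit RPA1 was at 64.0 ± 4.31 and 63.9 ± 1.81 RPM, with overlapping groups. Genes with reads overlap RPA3 (RPA3-AS1), RPA1 (SMYD4), RFC4 (EIF4A2) and RFC5 (WSB2) on the opposite strand.

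**Figure D3:**
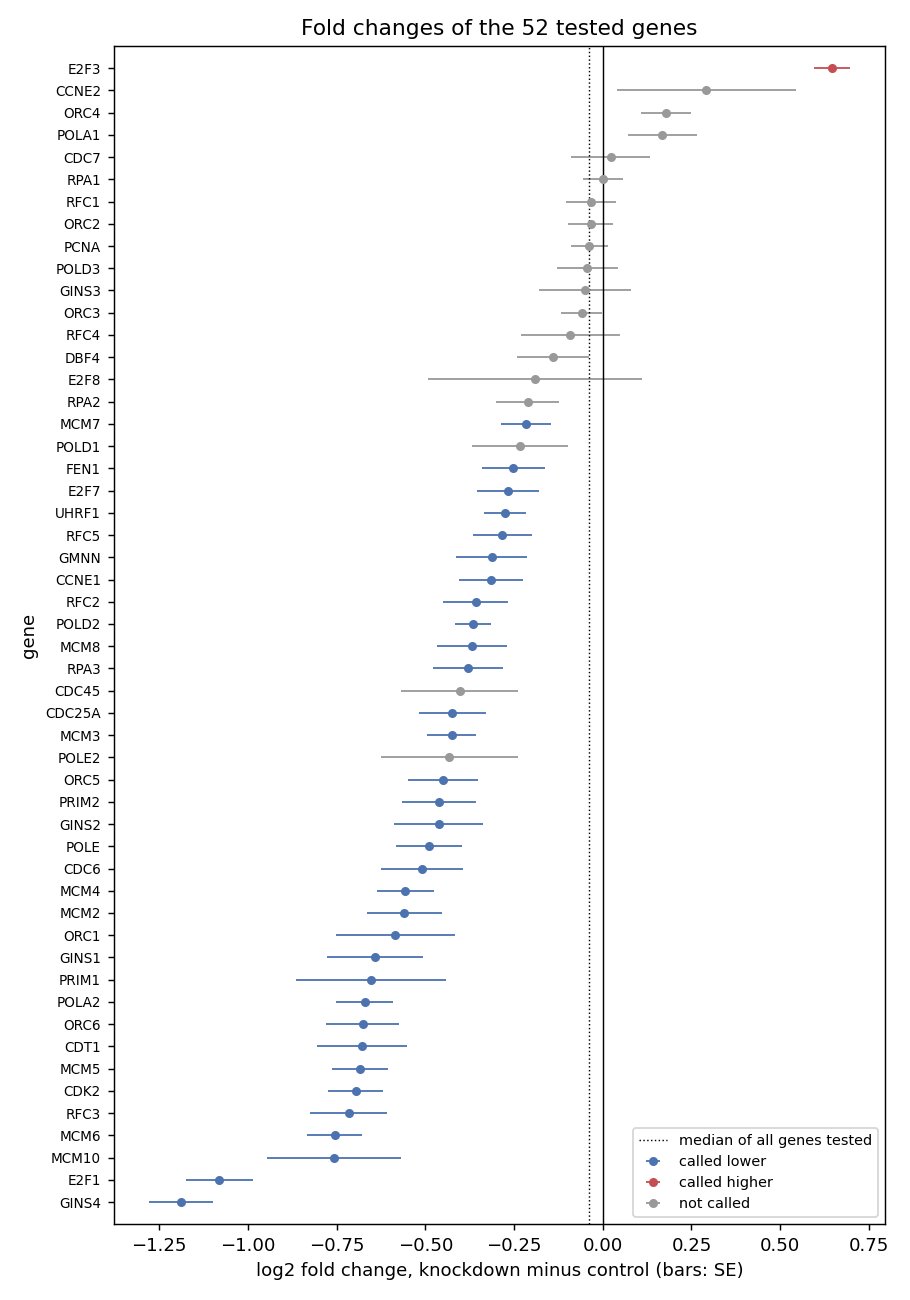
Each point is the log2 fold change (knockdown minus control) of 1 of the 52 tested genes with its standard error as a bar; blue genes were called lower, red higher and grey not called, and the dotted line is the median of all genes tested, -0.04. GINS4 and E2F1 lie lowest at -1.19 and -1.08, E2F3 alone is called higher at 0.65, and grey genes lie between -0.43 and 0.29.

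The E2F factors did not move together. Of the 4 tested, 2 fell (50%, against 23.5% of all genes tested) and 1 rose (25%, against 17.5%). E2F1, an activator of S-phase genes, was at 8.25, 9.06 and 9.66 RPM in the controls and at 4.26, 4.23 and 4.20 RPM in the knockdown libraries. The 3 knockdown values were nearly the same and far below every control, at a log2 fold change of -1.08 (SE 0.09, limma adjusted p = 8.9e-06). E2F3, another activator, was at 32.9, 34.4 and 34.2 RPM in the controls and at 52.8, 54.5 and 51.5 RPM in the knockdown libraries. All knockdown libraries lay far above all controls, at 157% ± 4.44 of the control mean, a rise of 0.65 on the log2 scale (SE 0.05; limma adjusted p = 3.9e-06). E2F3 was the only member called higher, and both E2F1 and E2F3 kept their calls and directions in all 19 other fits. The table counts E2F3 as 1 gene, so its E2F3A and E2F3B forms were not told apart. The atypical repressor E2F7 fell by 0.27 on the log2 scale (limma adjusted p = 0.03), from 122 ± 16 to 101 ± 7.36 RPM, with overlapping groups. E2F7 was called in 12 of 19 other fits. The call was lost without control 2 (limma adjusted p = 0.0778), control 3 (0.102), knockdown 2 (0.0764) or knockdown 3 (0.124). It was also lost with a replicate block (0.0731), without the variance trend (0.122) and with a robust variance model (0.0688).

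E2F8, the other atypical repressor, was at 0.454 ± 0.0761 and 0.394 ± 0.105 RPM (7 to 25 reads a library) and was not called. E2F2, the remaining activator, had 3 to 18 reads a library, a mean of 0.201 RPM in the controls and 0.171 RPM in the knockdown libraries, and was not tested. Per length the control order of the family was E2F7 at 21.2, E2F3 at 7.12, E2F1 at 3.59, E2F8 at 0.129 and E2F2 at 0.0388 RPKM. In the knockdown libraries E2F7 was at 17.6, E2F3 at 11.1 and E2F1 at 1.69 RPKM, and these 3 genes kept that order in each of the 6 libraries.

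CDK2, the kinase that starts S phase with cyclin E, was at 46.3, 54.5 and 51.5 RPM in the controls and at 34.5, 29.9 and 29.6 RPM in the knockdown libraries. The groups were well separated, and the log2 fold change was -0.70 (SE 0.08, limma adjusted p = 4.4e-05). CDC25A, the phosphatase that activates CDK2, fell from 7.02 ± 0.482 to 5.22 ± 0.213 RPM (log2 fold change -0.42, limma adjusted p = 0.0044). Cyclin E1 (CCNE1) fell from 7.12 ± 0.119 to 5.73 ± 0.349 RPM (log2 fold change -0.31, limma adjusted p = 0.017), a call lost without control 3 (adjusted p = 0.0631) or knockdown 2 (0.0585). Cyclin E2 (CCNE2) had 14 to 34 reads a library and was not called; it was at 0.661 ± 0.0247 and 0.828 ± 0.251 RPM, with knockdown 2 alone at 1.11 RPM. UHRF1, which helps to copy DNA methylation onto the new strand, fell from 34.2 ± 1.21 to 28.2 ± 1.51 RPM (log2 fold change -0.28, limma adjusted p = 0.0038) and had no length in the reference used. Genes on the opposite strand overlap CDK2 (PMEL), CDC25A (NDUFB1P1) and CCNE2 (NDUFAF6 and INTS8).

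**Figure D4:**
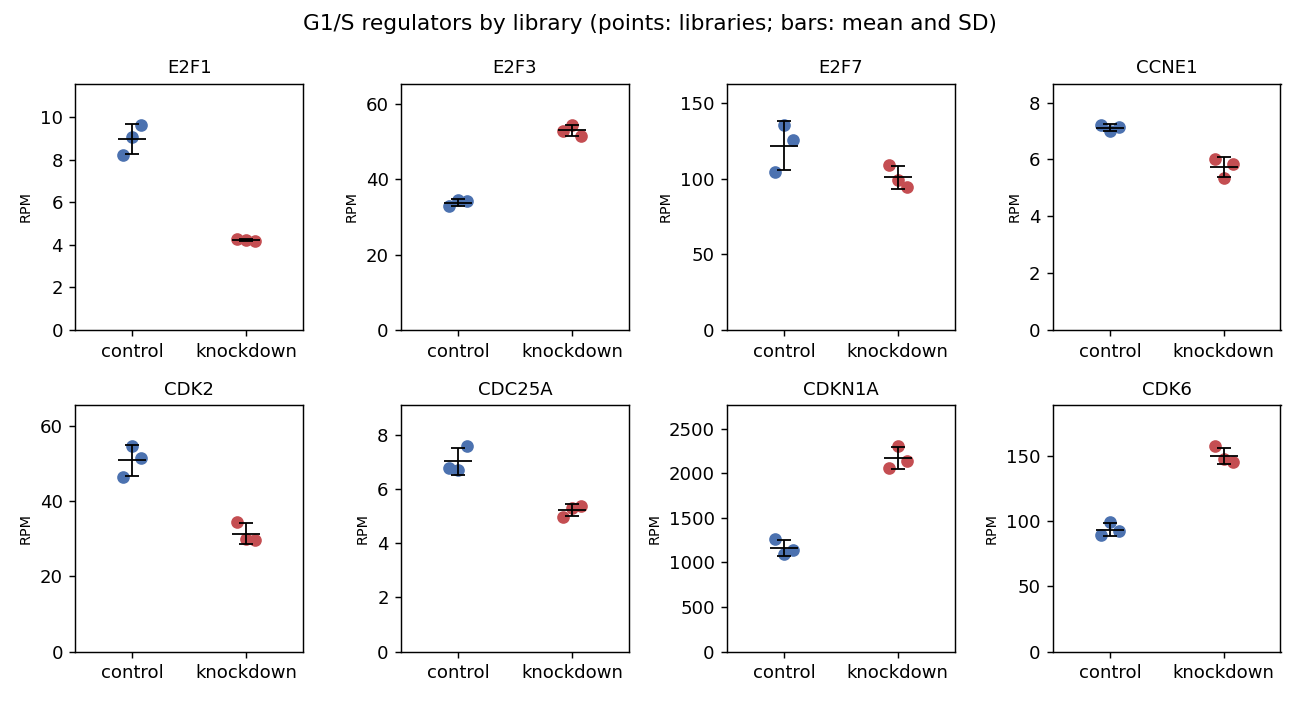
Points are the level of each gene in single libraries in RPM (each panel has its own linear axis from 0), and bars are the mean and SD of 3 libraries. E2F1, CCNE1, CDK2 and CDC25A are lower in all 3 knockdown libraries, E2F3, CDKN1A and CDK6 are higher in all 3, and the groups of E2F7 overlap.

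The 18 genes that did not pass were of different kinds. For 9 of them the absolute log2 fold change was under 0.1 (ORC2, ORC3, GINS3, CDC7, POLD3, PCNA, RFC1, RFC4 and RPA1), while CDC45, POLE2, E2F8 and CCNE2 had an SE over 0.15. ORC4 and POLA1 had every knockdown library above every control, and ORC3 and POLE2 had every knockdown library below. An exact permutation test of 3 libraries against 3 cannot give a two-sided p under 0.1, so the calls rest on the model fitted over all genes.

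The decrease was present in each knockdown library, and the controls were not alike. The median log2 difference of the 52 genes from the control mean was -0.38, -0.41 and -0.30 in knockdown libraries 1 to 3, and -0.12, 0.04 and 0.06 in control libraries 1 to 3. Control 1 was the lowest control for 40 of the 52 genes, control 2 for 11 and control 3 for 1. The medians of the 20 proliferation markers had a like pattern, although 1 marker was called higher and 5 were not called. They were -0.27, 0.15 and 0.11 in the controls and -0.46, -0.67 and -0.35 in the knockdown libraries. The median over all genes stayed between -0.04 and 0.01 in all 6 libraries. Without control 1, 36 members passed and their median was -0.41. Calls over all genes tested were fewer with any 1 library left out (5803 to 7330) than with all 6 (7805).

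Among the tested genes with a promoter window, calls occurred with and without an E2F-like word. Of the 23 with a word, 16 fell and 1, E2F3, rose, with a median log2 fold change of -0.43. Of the 20 without, 12 fell, with a median of -0.30; ORC1, ORC6, MCM10 and PRIM1 are among them. Genes with a word that did not pass were ORC3, GINS3, CDC7, POLA1, POLE2 and PCNA, whose word starts 59 bases before the gene start. Over all genes tested, 31.1% of the 720 with a word were called lower, against 25.5% of the 10403 with a window and no word. The word CCAAT was in 32 of the 57 member windows (56.1%, against 34.6% of all windows), and the cell cycle words TTTGAA or TTCGAA were in 3 (5.26%, against 16.4%). A match is a description of these letters, and the difference between the groups of members was not tested.

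Of 35 other replication genes that are not among the 53, 20 fell (57.1%, against 23.5% of all genes tested) and 0 rose (against 17.5%). Their median log2 fold change was -0.29. DTL, a receptor of the ubiquitin ligase that destroys CDT1, fell from 5.10 ± 1.36 to 2.40 ± 0.349 RPM (log2 fold change -1.05, limma adjusted p = 0.0016). CHTF18, of an alternative clamp loader, fell by 0.98 on the log2 scale (limma adjusted p = 0.0015), and CDCA5, which holds sister chromatids together, by 0.83 (limma adjusted p = 0.00083). Without control 3, 13 of this list passed. The 20 proliferation markers, of which TOP2A is also on that list, had 14 called lower (70%) and 1 higher (5%). Of all genes tested, 23.5% were called lower and 17.5% higher. The median of the markers was -0.49. The mitotic genes CDC20 and AURKA had log2 fold changes of -0.75 and -0.66, and MKI67, the Ki-67 antigen gene, had -0.43 (limma adjusted p = 0.023). Without control 3, 8 of the markers passed, and without control 1, 19.

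Other genes of G1/S control were called in both directions, in shares near those of all genes tested. Of 32, such as D-type cyclins, RB family genes and CDK inhibitors, 9 fell (28.1%, against 23.5% of all genes tested) and 8 rose (25%, against 17.5%), with a median log2 fold change of -0.03. CDKN1A, which encodes the CDK2 inhibitor p21, was at 1267, 1093 and 1135 RPM in the controls and at 2063, 2301 and 2144 RPM in the knockdown libraries. It rose by a log2 fold change of 0.90 (SE 0.06, limma adjusted p = 1.5e-06), with no overlap. CDK6, a kinase that phosphorylates RB, rose from 93.5 ± 5.08 to 150.0 ± 6.46 RPM (log2 fold change 0.68, limma adjusted p = 3.6e-06). FBXW7, a ubiquitin ligase subunit that marks cyclin E for destruction, rose from 15.8 ± 0.453 to 24.4 ± 0.503 RPM (log2 fold change 0.63, limma adjusted p = 1.7e-05). The 3 largest decreases called in this list were nearly as large as that rise. They were LIN52 (log2 fold change -0.60), the CDK inhibitor CDKN2A (-0.59) and CCND3 (-0.56). The groups of CDKN2A overlapped, and it was called in 11 of 19 other fits.

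**Figure D5:**
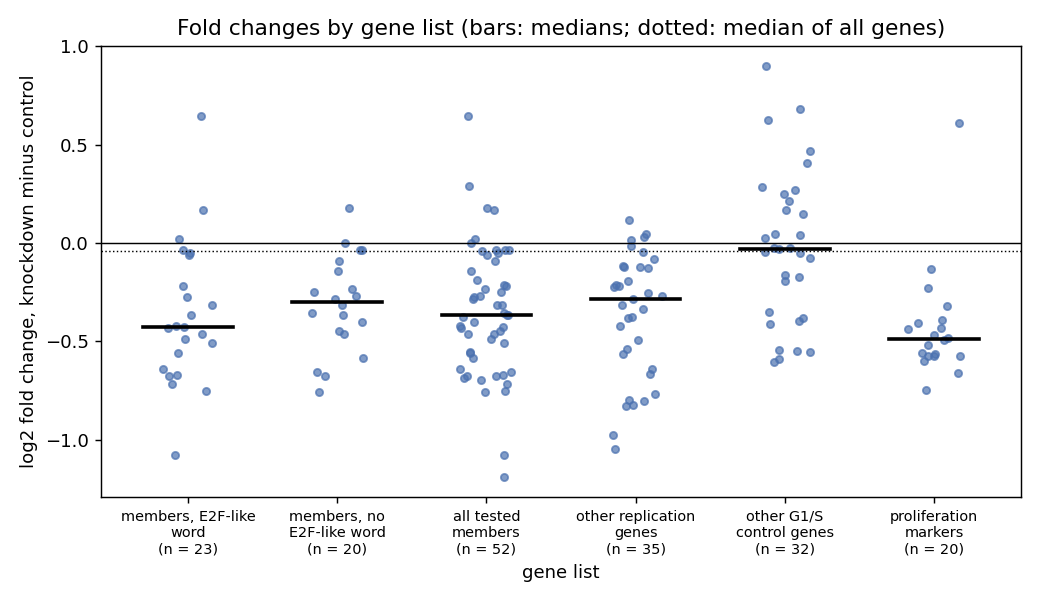
Each point is the log2 fold change of 1 tested gene (knockdown minus control) in the list named below it, black bars are list medians, and the dotted line is the median of all genes tested. Members, other replication genes and proliferation markers have medians of -0.37, -0.29 and -0.49, while other G1/S control genes have a median of -0.03 with points on both sides of 0.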

How the data were processed

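RNA was poly(A)-selected and sequenced as 50-base single-end reads, per the labels' protocols. The submitters' processing notes name Bowtie2, featureCounts and build hg19; annotation release, strand setting and normalization tool are not given in the sources used here. The deposited table holds log2 values, which were taken here as log2 CPM with an offset of 0.5 reads. That offset was inferred: undoing it gave whole reads for 100% of values (tolerance 0.01 reads). These reads give the RPM values. The library factors were 0.989 to 1.01.

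The deposited log2 values of genes with a mean of at least 10 normalized reads (19048 of 57819) were tested with limma 3.58.1 in R 4.3.3 (lmFit, eBayes with trend, two-sided, Benjamini-Hochberg over all genes), after a check on simulated data. In the simulation, 100 genes were changed by 1.5 times and 100 by 2 times, and 77% and 91% of them were called with the right sign. Unchanged genes made up 6.15% of its calls. Far fewer genes changed there than the 7805 called in the data, so the check does not give the error rate here. Transcript lengths and GC content came from GENCODE 29, matched for 97.4% of tested genes. Per-length orders between genes rest on the longest transcript of each, and which transcripts gave the reads was not tested. The members and lists were chosen with earlier results of these data known. Values in each library are given for called members whose log2 fold change was 0.5 or more in size and for any called member moving against the rest; of each other list the 3 largest called changes are named, plus sin-lncRNA, CDKN1A and MKI67. PCNA was given by library as well, and the 3 largest decreases of the other G1/S control genes were added. Both choices were made after the values were seen. Same-numbered replicates had deviation correlations of -0.15, -0.18 and 0.07 and were not paired in the main fit. With 3 libraries a group, these values cannot decide whether the samples were paired. The 19 other fits changed the offset, filter, scaling, variance model, libraries used, block, depth or a GC and length trend, and 1 stricter threshold was tried.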

Additional observations from a re-analysis of the deposited data

How the results depend on the processing

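All 34 called members kept their direction in the 19 other fits. Of these, 22 kept the call in every fit they entered and 12 lost it at least once. A lost call did not always come with a smaller log2 fold change, as for GMNN, RFC5 and PRIM1 in some fits. Another 4 members that had not passed gained a call at least once. The count of members called ran from 22 to 36 when 1 library was left out, and was 23 at an adjusted p under 0.01. Leave-one-out counts ran from 5803 to 7330 for all genes, 13 to 18 for the other replication genes, 8 to 19 for the proliferation markers and 14 to 17 for the other G1/S control genes. At an adjusted p under 0.01 the counts were 5195 genes, 13 other replication genes and 8 proliferation markers, by construction of the stricter threshold, and without the variance trend 9 proliferation markers passed (the cause was not tested). With the replicate number as a block, 31 members passed, all 31 of which had passed without it. Whether the replicate numbers mark paired samples is not settled here.

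Signs changed only in 7 members that had not passed, and the cause was not tested. All but E2F8 had a log2 fold change under 0.1 in size in the main fit. E2F8, with 7 to 25 reads a library, was at -0.19 (SE 0.30). When 1 library was left out, log2 fold changes ran from -0.0708 to 0.0104 for ORC2, -0.0502 to 0.073 for CDC7, -0.072 to 0.033 for RFC1, -0.208 to 0.0446 for RFC4 and -0.0515 to 0.0458 for RPA1. With quantile normalization ORC2 was at 0.015, RFC1 at 0.00865 and RPA1 at 0.0288. With a GC and length trend removed CDC7 was at -0.0405 and PCNA at 0.00433. RPA1 was also at 6.1e-05 and 0.00129 with offsets of 1 and 5 reads, 0.0191 with library totals, 0.00164 with voom and 0.0204 with thinned libraries, and E2F8 was at 0.00785 with an offset of 5 reads. Read depth limits E2F2, E2F8, CCNE2, POLE2 and PRIM1, and strand-blind counts limit genes that overlap others.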

Other observations

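Among the proliferation markers, TYMS, which makes thymidylate for DNA synthesis, was the only one called higher. It was at 9.60, 9.72 and 10.4 RPM in the controls and at 15.4, 14.9 and 15 RPM in the knockdown libraries, with no overlap (log2 fold change 0.61, SE 0.07, limma adjusted p = 6.3e-05), and it was called in all 19 other fits. ENOSF1, which overlaps TYMS on the opposite strand, was at 9.86 ± 0.542 and 8.20 ± 0.858 RPM (log2 fold change -0.27, limma adjusted p = 0.042) and was called lower in 9 of 19 other fits. Reads of the overlapping stretch cannot be told apart between these genes.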
